A study of Mus musculus with 8 samples.

Results

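The metallothionein genes Mt1, Mt2 and Mt4 were followed through mouse back skin epidermis, as 3 of the 19591 genes with a row in the tables of the series. They were taken by gene symbol and chosen by readout: Mt4 had marked the Krt10-rich wells of the single-cell plates, and Mt2 the basal wells of traced mice. The single-cell levels below are therefore a description without tests, and the tests are confined to the bulk libraries, whose values the rule did not use, although earlier results of the whole series were known when it was set. The remaining gene of the family, Mt3, had no row in any table and was not analysed here.

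All mice were adult C57BL/6 carrying Troy-EGFP-IRES-CreERT2, a knockin that puts EGFP and CreERT2 under the control of the Troy (Tnfrsf19) locus in place of the Troy coding region, so every group including the EGFP- cells came from animals with this altered allele. For bulk sequencing, 3 populations were sorted from each of 2 mice of 7 to 9 weeks: all viable (DAPI-) cells, ITGA6bright EGFP+ cells and ITGA6bright EGFP- cells, ITGA6 being an integrin that is bright on basal cells. For single-cell sequencing, 4 plates came from 4 Troy-EGFP-IRES-CreERT2 mice (TroyM01, TroyM02, TroyF01 and TroyF02, here the Troy-EGFP plates), sorted as ITGA6-, ITGA6bright EGFP- and ITGA6bright EGFP+ cells. Another 2 plates (TroyTDM2 and TroyTDM3, here the traced plates) came from 2 male mice that also carried Rosa26-LSL-tdTomato, homozygous at both loci, 7 days after 1 injection of 5 mg tamoxifen. Their cells were sorted by ITGA6 (ITGA6-, ITGA6dim and ITGA6bright), EGFP and tdTomato, so the gates differed between the 2 kinds of plate. Gates, genotype and tamoxifen cannot be told apart in comparisons between them. The gate of each well is not given in the sources used here, so the plates were read by class of cell and not by EGFP or tdTomato.

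Metallothioneins are small cysteine-rich proteins that bind zinc and copper and take up cadmium. Mt1 and Mt2 are active in most tissues and respond to metals, glucocorticoids and oxidative stress. The metal response runs through MTF1, a zinc finger factor that binds short metal response elements near their starts, and that also drives the zinc exporter gene Slc30a1. Mt4 is known from stratified squamous epithelia, where it belongs to the differentiating layers. The epidermis renews from a basal layer rich in keratins 5 and 14 (Krt5, Krt14), and cells that leave it turn on keratins 1 and 10 (Krt1, Krt10).

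The family sits in 1 cluster of 43.1 kb on chromosome 8 (GRCm38.p6, plus strand), with Mt4 at chr8:94137204-94139031, Mt2 at chr8:94172618-94173567 and Mt1 at chr8:94178883-94180327, and Mt3 between Mt4 and Mt2. The core of the metal response element was searched as TGCACNC and TGCGCNC on both strands, in windows from 250 bases before to 50 bases after the RefSeq start of each gene. All 3 members had a window among the 32851 RefSeq promoters. The Mt2 window held 4 matches, the Mt1 window 3 and the Mt4 window 1. At least 4 matches were present in 0.517% of all promoters of this length, at least 3 in 1.97%, and at least 1 in 25.7%. The matches are shown because they set Mt1 and Mt2, the metal-responsive members, beside Mt4, with the core in capitals and 7 bases on each side, read 5′ to 3′ on the strand of the match.

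Mt1, plus strand, chr8:94179059-94179079: cccgctgTGCACACtggcgct
Mt1, plus strand, chr8:94179084-94179104: ggagctcTGCACTCcgcccga
Mt1, plus strand, chr8:94179102-94179122: cgaaaagTGCGCTCggctctg
Mt2, plus strand, chr8:94172388-94172408: tcgcctcTGCACCCggcccct
Mt2, plus strand, chr8:94172483-94172503: gacccttTGCGCTCagctcct
Mt2, minus strand, chr8:94172561-94172581: cagagccTGCACACgccctcc
Mt2, minus strand, chr8:94172615-94172635: ctgggccTGCGCACgacccga
Mt4, minus strand, chr8:94137106-94137126: gacgcccTGCACACggcccag

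A match is a run of letters and not a measured binding site. The Mt1 window was set on a RefSeq start at 94179089, which lies inside the gene span given above, and elements further downstream were not in it. The cores of the Mt1 matches at 94179084-94179104 and 94179102-94179122 began after that start. The core of the Mt2 match at 94172615-94172635 likewise began after the Mt2 start.

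The bulk libraries held 157537 to 453005 counts. Of 2304 wells, 1109 had at least 1000 transcripts, with plate medians of 1676 to 3267 transcripts per kept well. Clusters with genes of necrotic or non-epidermal cells among their leading genes were removed, which left 503 epidermal wells on the Troy-EGFP plates and 402 on the traced plates. Their clusters were named from markers as IFE I-like (basal interfollicular epidermis), IFE II-like (committed interfollicular epidermis), lower HF-like and upper HF-like (hair follicle), and 79 traced wells stayed unnamed. No Langerhans cell cluster was removed on the traced plates. At a clustering resolution of 1.2 a kept traced cluster of 76 wells was named Langerhans cell-like. Sostdc1 and Aldh3a1 were among its leading genes, as in the unnamed wells. Whether the 402 wells hold Langerhans cells was not tested. In the IFE II-like wells Krt10 reached 12400 ± 4150 CPM (counts scaled to equal library totals; SD, n = 3 plates) and 14000 ± 1410 CPM (n = 2) on the Troy-EGFP and traced plates, against 789 ± 498 CPM (n = 4) and 156 ± 151 CPM (n = 2) in the IFE I-like wells.

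Mt4 was lower in sorted ITGA6bright EGFP- cells than in EGFP+ cells. Its level was 52.0 and 37.6 CPM in the EGFP+ libraries of the mice, 55.2 and 41.5 CPM in the viable libraries, and 6.90 and 5.29 CPM in the EGFP- libraries. The EGFP- libraries lay below all others, and the EGFP+ and viable libraries overlapped. These levels rest on few transcripts, with 21 and 9 counts in EGFP+, 17 and 20 in viable and 1 and 1 in EGFP- cells. Between EGFP+ and EGFP- cells the log2 fold change was 2.84 ± 0.80 (SE; edgeR's quasi-likelihood test, adjusted p = 0.0338). As a ratio of summed counts it was 7.78, with a 95% counting interval from 1.97 to 67.2. Among 4653 genes tested in this comparison, 7.05% were called, 2.99% higher in EGFP+ and 4.06% lower, and Mt4 was the only called member. The call was lost with DESeq2 (adjusted p = 0.31), and in edgeR without viable replicate 1 (adjusted p = 0.0591), without EGFP+ replicate 1 (0.276) or without EGFP- replicate 2 (0.071).

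Against all viable cells, the EGFP- cells had a Mt4 log2 fold change of -2.89 ± 0.78, which missed the threshold (edgeR, adjusted p = 0.0584). The ratio of summed counts was 0.128 (95% counting interval 0.0149 to 0.496). It passed with the mouse as a block (edgeR, adjusted p = 0.0306), without the filter on low counts (0.0256) and without EGFP+ replicate 2 (0.0448). In this comparison 1.78% of genes were called, 0.924% higher and 0.86% lower in EGFP- cells, and 0 of the 3 members by edgeR, with Mt4 the 1 at an unadjusted p under 0.05, as were 13.5% of all genes tested. DESeq2 called neither Mt1 nor Mt2 there and gave no adjusted p for Mt4. The EGFP+ and viable cells did not differ detectably in Mt4 (log2 fold change -0.05 ± 0.42, adjusted p = 0.998 by edgeR). There 0.473% of genes were called, 0.0645% higher and 0.408% lower in EGFP+ cells, with 0 members by edgeR or DESeq2 and 0 at an unadjusted p under 0.05. Fewer cells of a type and less RNA per cell cannot be told apart in bulk samples.

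Of the 5 markers of committed cells, 2 were called, both higher in EGFP+ cells, and they were the keratins. Krt10 was called at a log2 fold change of 1.66 ± 0.31 between EGFP+ and EGFP- cells (edgeR, adjusted p = 0.00179), and Krt1 at 2.03 ± 0.32 (adjusted p = 0.000338). The other 3 were not called, with log2 fold changes of 0.78 (Dmkn), 0.50 (Krtdap) and -0.67 (Sbsn). The 5 basal markers of the IFE I list had a median of 0.91 with 0 called by edgeR, and summed to 24740 and 23689 CPM in EGFP+ against 12689 and 14347 CPM in EGFP- cells. Markers of Langerhans cells and of the upper and lower follicle moved the opposite way to Mt4. The 6 Langerhans cell genes summed to 96.6 and 91.9 CPM in EGFP+ against 1215 and 1196 CPM in EGFP- cells, and all 4 that were tested were called lower in EGFP+. The 5 upper HF genes summed to 649 and 814 CPM in EGFP+ against 7014 and 3652 CPM in EGFP- cells, with 4 of 5 called lower. The 6 lower HF genes summed to 688 and 831 CPM in EGFP+ against 1961 and 3641 CPM in EGFP- cells, with Lhx2 and Sox9 called lower of 3 tested. The T cell genes, too low to be tested, summed to 4.95 and 4.18 CPM in EGFP+ against 159 and 63.5 CPM in EGFP- cells. The 2 genes that mark necrotic wells summed to 7446 and 7970 CPM in EGFP+ against 12123 and 17020 CPM in EGFP- cells, and neither was called (edgeR). The part of these markers in the Mt4 difference was not tested.

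Mt1 was the most abundant member and lay close to 1 level in the 3 populations. It ranked 34th, 35th and 35th among the detected genes of the EGFP+, EGFP- and viable cells. Its level was 2395 and 2914 CPM in EGFP+, 3079 and 2069 CPM in EGFP- and 2323 and 2401 CPM in viable libraries, so the 3 groups overlapped. The log2 fold change between EGFP+ and EGFP- cells was 0.02, with a 95% interval from -0.63 to 0.68 (edgeR, adjusted p = 0.982). Against viable cells it was 0.15 ± 0.31 in EGFP+ (adjusted p = 0.997, edgeR) and 0.13 ± 0.31 in EGFP- cells (adjusted p = 0.909).

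Mt2 was 376 and 509 CPM in EGFP+, 994 and 471 CPM in EGFP- and 588 and 687 CPM in viable libraries. The EGFP- libraries of the mice stood far apart, and their range overlapped that of the EGFP+ and held that of the viable libraries. The log2 fold change between EGFP+ and EGFP- cells was -0.74 ± 0.33 and did not pass (edgeR, adjusted p = 0.207). It passed only without EGFP- replicate 2, where the remaining EGFP- library is assumed to vary like the other groups. With 1 library left out the log2 fold change ran from -1.14 to -0.12. Reads that fit both Mt1 and Mt2, which are close copies in their coding parts, could have been assigned to either, and this was not tested.

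**Figure D1:**
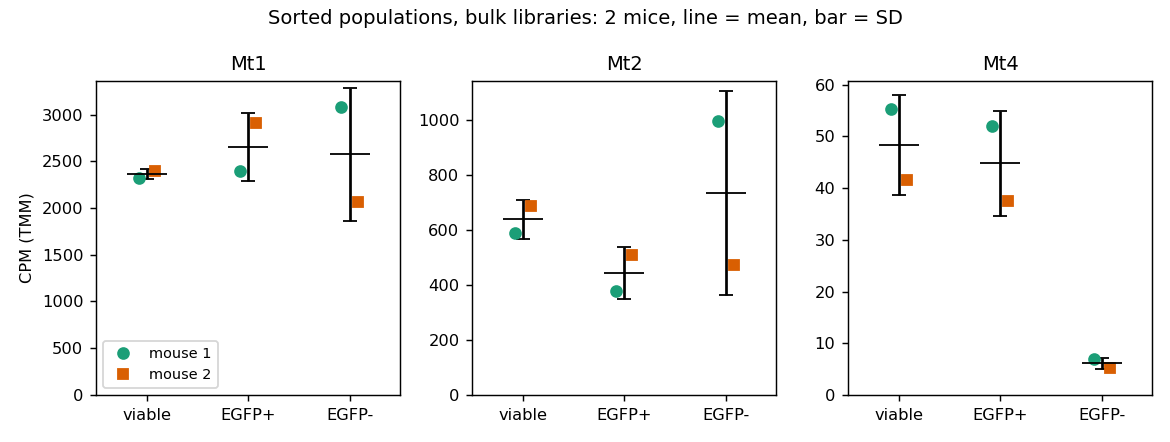
Levels of Mt1, Mt2 and Mt4 in CPM (TMM-scaled, linear axes from 0) in the bulk libraries of viable, EGFP+ and EGFP- cells. Points are the 2 mice, the horizontal line is their mean and the bar the SD. Mt4 lies at 5.29 and 6.90 CPM in EGFP- cells and at 37.6 CPM or above in the other libraries, while the Mt1 groups overlap.

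Genes of metal handling and of the inputs to Mt1 and Mt2 were read in the same fits. Of 24 zinc transporter genes 7 had enough counts, and between EGFP+ and EGFP- cells 1 of them was called, the zinc importer gene Slc39a6, higher in EGFP+ (log2 fold change 1.74 ± 0.50, edgeR, adjusted p = 0.0366). Of 14 copper and metal handling genes 7 were tested and 1 was called, Fth1 for the iron store ferritin heavy chain, higher in EGFP+ (1.24 ± 0.30, adjusted p = 0.0134, edgeR). Of 16 oxidative stress genes 10 were tested and 2 were called, both lower in EGFP+: Gpx4, a lipid peroxide reductase (-1.92 ± 0.32), and Gclm, a subunit of the enzyme that limits glutathione synthesis (-2.40 ± 0.42). Of 12 genes of the glucocorticoid response 6 were tested and 2 were called, in opposite directions, with the phosphatase gene Dusp1 higher (2.31 ± 0.40) and the kinase gene Sgk1 lower (-1.27 ± 0.29) in EGFP+ cells.

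The median log2 fold changes of these lists were -0.53 (zinc transporters), -0.36 (metal handling), -0.41 (oxidative stress) and -0.11 (glucocorticoid response), beside -0.04 over all genes tested. Of their 30 tested genes, 10 (33.3%) had an unadjusted p under 0.05 between EGFP+ and EGFP- cells, beside 19.8% of all genes, and 6 were called, beside the 7.05% given above. Between EGFP- and viable cells 9 (30.0%) had one, beside 13.5%. Against viable cells 0 of the 30 tested genes of the 4 lists were called in EGFP+ by edgeR, with 2 (6.67%) at an unadjusted p under 0.05 beside 6.66% of all genes tested, and Dusp1 alone was called in EGFP- cells, where it was lower (-1.96 ± 0.41, edgeR, adjusted p = 0.014). Mtf1 had 1 to 4 counts per library and Slc30a1 3 to 6, and both were too low to be tested.

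On the single-cell plates Mt4 was a gene of IFE II-like wells. Its summed level there was 103 CPM on TroyF01, 103 CPM on TroyF02 and 1030 CPM on TroyM02, and 1330 and 1010 CPM on the traced plates TroyTDM2 and TroyTDM3. TroyM01 held only 7 such wells and was left out of class levels. In IFE I-like wells Mt4 was 0, 33.1, 50.4 and 15.7 CPM on TroyF01, TroyF02, TroyM01 and TroyM02, and 71.4 and 9.97 CPM on the traced plates. Every plate with both classes was thus higher in IFE II-like wells, by 2.90 ± 1.85 (SD, n = 3 plates) and 4.49 ± 0.86 (n = 2) on the log2(CPM + 20) scale, which understates changes of low genes.

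A Mt4 transcript was found in 19.6% of 51, 23.3% of 43 and 53.3% of 15 IFE II-like wells on TroyF01, TroyF02 and TroyM02, and in 88.5% of 26 and 72.2% of 18 on TroyTDM2 and TroyTDM3. After thinning each well to 1000 barcodes these were 3, 3, 6, 16 and 9 wells. The Troy-EGFP plates thus differed among themselves, and a share pooled over them hides this. In IFE I-like wells the shares were 2.98% and 3.17%, from 5 and 4 wells. In lower HF-like wells they were 1.31% of 153 and 2.00% of 100. No upper HF-like well of 66 on the Troy-EGFP plates held one, which allows a share of up to 4.55%, and 1.89% of 53 did on the traced plates. Of wells that should lack the gene, Langerhans cell-like wells held it in 5.13% of 39 (median 3008 transcripts, against 3217 in IFE I-like wells). T cell-like wells held it in 0 of 43 on the Troy-EGFP plates and 0 of 27 on the traced plates, which allows shares of up to 6.98% and 11.1%. These few wells set a loose limit, and whether the low shares outside the IFE II-like class exceed background could not be told at this depth. The transcripts there lay in few wells, with 21 in 4 traced IFE I-like wells and 19 in 2 traced lower HF-like wells, up to 12 and 18 in 1 well, against 3 in 2 Langerhans cell-like wells.

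**Figure D2:**
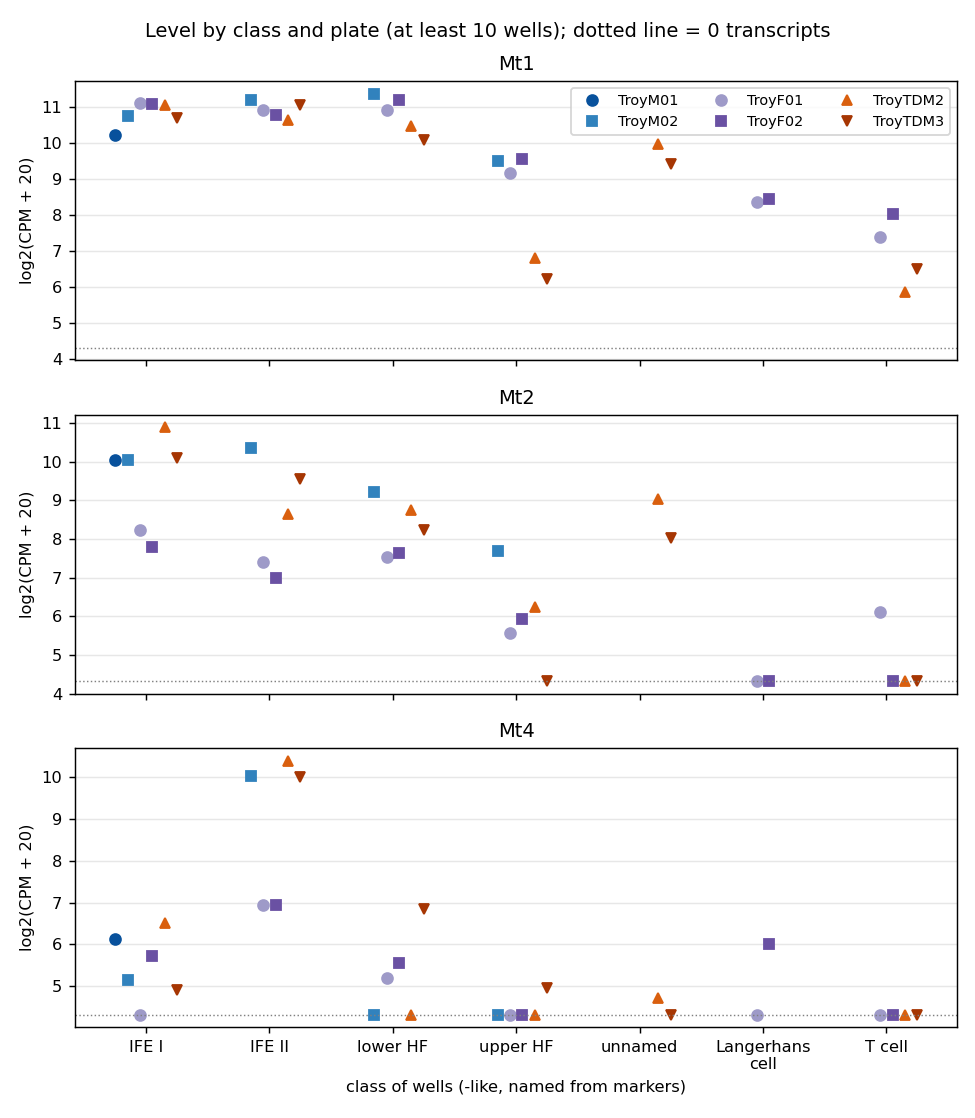
Summed level of Mt1, Mt2 and Mt4 as log2(CPM + 20) by class of wells, 1 point per plate with at least 10 wells in the class, Troy-EGFP plates in blue and violet and traced plates in orange and brown. The dotted line is 0 transcripts. Mt4 stands high in IFE II-like wells of every plate, and Mt1 and Mt2 are low in upper HF-like and in T cell-like wells.

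Binning the epidermal wells by the share of Krt10 in their transcripts restates how Mt4 was chosen, and gives the size of that pattern by Krt10 level. With Krt10 under 0.1%, 0.542% of 369 Troy-EGFP wells and 2.27% of 352 traced wells held a Mt4 transcript. With 0.5 to 2% Krt10 the shares were 21.6% of 37 wells on TroyF01, 36.7% of 30 on TroyF02, 71.4% of 7 on TroyM01 and 77.8% of 9 on TroyM02, and 90.0% of 20 and 69.2% of 13 on the traced plates. At 2% or more they were 19.0% of 21 and 100% of 5 wells, few wells in which no further rise can be read. Of the wells with Mt4, 35 of 39 on the Troy-EGFP plates and 32 of 44 on the traced plates had at least 0.5% Krt10. Mt4 was also concentrated, since the 10 wells highest in it held 65.0% and 49.2% of its transcripts in the epidermal wells of the Troy-EGFP and traced plates.

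Mt1 was close to even between the IFE and the lower follicle on the Troy-EGFP plates and low in the upper follicle. In IFE I-like wells it was 2160, 2120, 1160 and 1700 CPM on TroyF01, TroyF02, TroyM01 and TroyM02, and 2100 and 1630 CPM on the traced plates. In IFE II-like wells it lay between 1730 and 2290 CPM on the Troy-EGFP plates and at 1560 and 2080 CPM on the traced plates. The difference between these classes was -0.02 ± 0.38 (SD, n = 3 plates) and -0.04 ± 0.55 (n = 2) on the log2(CPM + 20) scale, smaller than the spread between plates. A Mt1 transcript was found in 94.0% of IFE I-like and 91.4% of IFE II-like wells of the Troy-EGFP plates.

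In upper HF-like wells Mt1 was 550, 730 and 694 CPM on TroyF01, TroyF02 and TroyM02, and 92.0 and 54.5 CPM on the traced plates. All 5 plates were lower there than in their own IFE I-like wells, by 1.57 ± 0.34 (SD, n = 3) and 4.35 ± 0.16 (n = 2) on the log2(CPM + 20) scale. Both traced plates lay below all Troy-EGFP plates in this class, as did 14.4% of 3358 genes. The sort gates differed between the experiments, and their part in this was not tested. The traced value depends on where the cluster ends: at a clustering resolution of 0.5, which merged the unnamed wells into the upper HF-like class, the difference was 1.79. T cell-like wells had a transcript in 37.2% of 43 wells on the Troy-EGFP plates (median 1717 transcripts) and in 7.41% of 27 on the traced plates (median 1970). The upper HF-like shares were 66.7% of 66 (median 3074) and 18.9% of 53 (median 3613), and after thinning to 1000 barcodes 42.4% against 16.3% and 11.3% against 7.41%. Langerhans cell-like wells of the Troy-EGFP plates held Mt1 in 66.7% of 39 (median 3008), 35.9% after thinning, at 320 ± 14.8 CPM (SD, n = 2 plates). On the Troy-EGFP plates Mt1 in upper HF-like wells thus had the same unthinned share as in Langerhans cell-like wells, and a higher summed level on TroyF01 and TroyF02, the plates with at least 10 wells of both classes.

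In lower HF-like wells Mt1 was 1910, 2310 and 2600 CPM on TroyF01, TroyF02 and TroyM02, against 1390 and 1060 CPM on the traced plates. The traced plates lay below all Troy-EGFP plates, as did 11.4% of 3444 genes in this class. In the unnamed traced wells it was 971 and 664 CPM.

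As a mean over plates, Mt2 was highest in the IFE I-like wells of traced mice, the reading by which it was selected. There it reached 1880 and 1080 CPM, against 1030, 1040, 283 and 202 CPM on TroyM01, TroyM02, TroyF01 and TroyF02. Both traced plates lay above all Troy-EGFP plates, as did 14.7% of 3241 genes in this class, and the lower traced plate differed little from TroyM01 and TroyM02. In IFE II-like wells Mt2 was 378 and 728 CPM on the traced plates and 1300, 149 and 107 CPM on TroyM02, TroyF01 and TroyF02, so the experiments overlapped. The TroyM02 value there was above the 1080 CPM of the lower traced plate in IFE I-like wells.

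On the traced plates Mt2 fell off from the IFE I-like wells towards every other class. It was 411 and 283 CPM in lower HF-like wells, 55.2 and 0 CPM in upper HF-like wells and 505 and 240 CPM in unnamed wells. The IFE I-like wells were higher than the lower HF-like wells by 2.00 ± 0.20 (SD, n = 2 plates) on the log2(CPM + 20) scale, and than the upper HF-like wells by 5.22 ± 0.79. On the Troy-EGFP plates these differences had the same direction on all 3 plates and were 0.57 ± 0.35 and 2.30 ± 0.40. Mt2 was not found in 39 Langerhans cell-like wells, which allows a share of up to 7.69%, and was in 2.33% of T cell-like wells of the Troy-EGFP plates, against 53.6% of IFE I-like wells.

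By keratin share, a Mt2 transcript was in 26.6% of 218 Troy-EGFP wells with Krt14 under 0.1%, in 44.8% of 134 with 0.1 to 0.5% and in 49.3% of 146 with 0.5 to 2%. On the traced plates these shares were 47.6% of 124, 46.9% of 145 and 76.9% of 130 wells. At 2% or more Krt14 it was in 5 of 5 Troy-EGFP wells and 0 of 3 traced wells. Up to 2% Krt14 the highest of these bins was thus the most often positive on both kinds of plate, and the wells above it were too few to read. On TroyF02 the bins of 0.1 to 0.5% and 0.5 to 2% were equal, at 43.1%. By Krt10 share, Mt2 was in 39.8% of Troy-EGFP wells under 0.1%, 43.4% at 0.5 to 2% and 14.3% of 21 at 2% or more. The traced shares were 53.4%, 84.8% and 60.0% of 5.

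**Figure D3:**
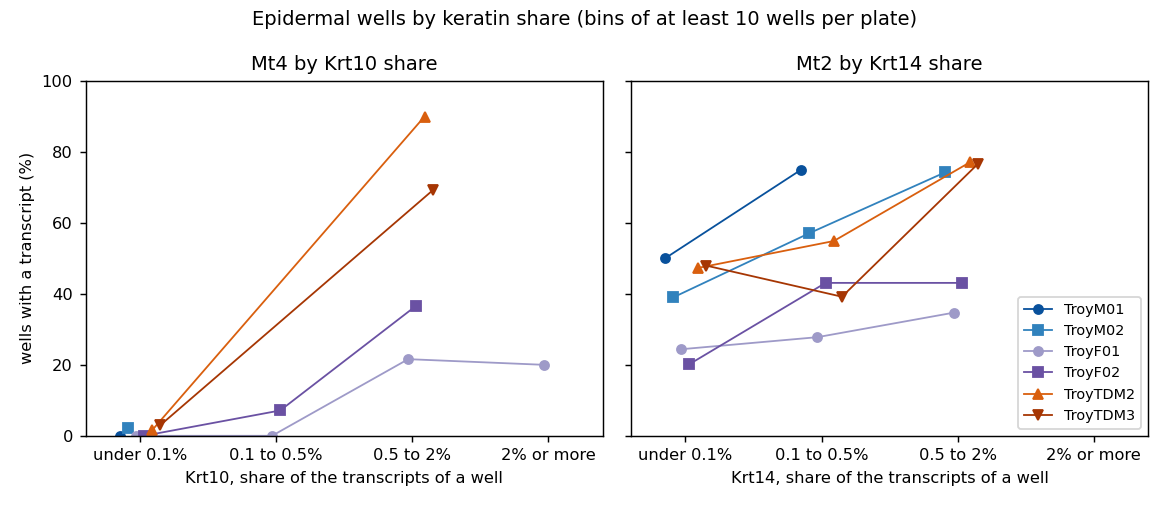
Share of epidermal wells with a Mt4 transcript by the share of Krt10 in the well, and with a Mt2 transcript by the share of Krt14, in percent, 1 line per plate over bins of at least 10 wells. Mt4 is in at most 3.01% of wells below 0.1% Krt10 and rises on the 4 plates with enough Krt10-rich wells, to between 21.6% and 90.0%.

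The balance of Mt1 and Mt2 split the plates. Both methods count tagged 3′ ends and not fragments along the gene, so the ratio of transcripts needs no length correction. In IFE I-like wells there were 1.12, 1.64, 7.64 and 10.5 Mt1 transcripts for each Mt2 transcript on TroyM01, TroyM02, TroyF01 and TroyF02, and 1.12 and 1.51 on the traced plates. In lower HF-like wells the ratios were 4.54 on TroyM02, 11.4 and 13.0 on TroyF01 and TroyF02, and 3.37 and 3.74 on the traced plates. TroyF01 and TroyF02 thus stood apart from the other 4 plates in IFE I-like wells. The bulk ratios were 6.36 and 5.72 in EGFP+, 3.10 and 4.39 in EGFP- and 3.95 and 3.50 in viable cells.

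This split followed other differences between the plates. In IFE I-like wells TroyM01 and TroyM02 were both above TroyF01 and TroyF02 in Mt2 and both below in Mt1, but 33.9% and 22.1% of 3183 genes were likewise above and below, so such a gap was common. Kept wells of TroyF01 and TroyF02 held 105 and 110 Xist transcripts and 0 of the Y-linked Ddx3y. TroyM01 and TroyM02 held 0 Xist and 15 and 26 Ddx3y transcripts, and the traced plates 0 Xist and 55 and 101 Ddx3y. The bulk libraries had 0 or 1 Xist count and 21 to 135 Ddx3y counts each. The tables of TroyF01 and TroyF02 list mitochondrial genes, at 4.75% and 5.75% of transcripts, and those of the other 4 plates list none, which is a difference between the tables and not a measured level. Sex, plate and handling cannot be told apart in these data.

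**Figure D4:**
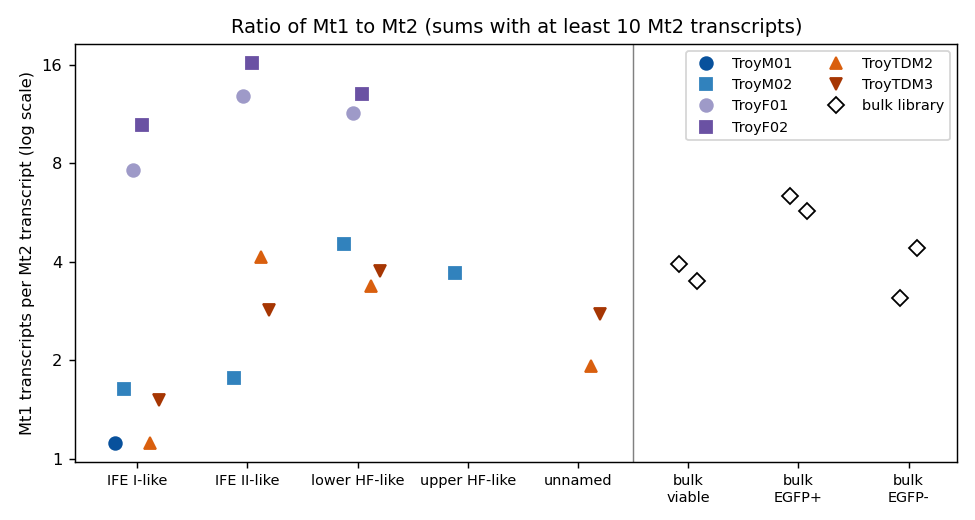
Mt1 transcripts per Mt2 transcript (log axis) in class sums of each plate with at least 10 Mt2 transcripts and 10 wells, and in the 6 bulk libraries (open diamonds). TroyF01 and TroyF02 lie at 7.64 or above in every class shown, the other plates at 4.54 or below, and the bulk libraries between 3.10 and 6.36.

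A well with 1 member held another more often than a well without it, and such wells were also deeper. On the Troy-EGFP plates a Mt2 transcript was in 42.2% of 441 epidermal wells with Mt1 and 14.5% of 62 without it, at median depths of 3227 and 2035 transcripts. On the traced plates it was in 69.5% of 302 wells with Mt1 and 17.0% of 100 without it, at 3463 and 2961 transcripts. All 39 Troy-EGFP wells with Mt4 held Mt1, and 64.1% held Mt2, at a median of 5159 transcripts against 2942 in wells without Mt4. All 3 were seen in 4.97% of the Troy-EGFP and 8.46% of the traced wells. None of the 3 was seen in 10.5% of 503 Troy-EGFP and 20.1% of 402 traced epidermal wells, the latter with the unnamed wells included. The part of depth in these shares was not tested.

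Over 13 sums of class and plate from the Troy-EGFP plates, after removing each plate's mean, the genes most like Mt4 among 3217 were Krt10 (r = 0.95), Mark2 (0.94), Rpl23a (0.93), Krt1 (0.93) and Gm94 (0.93). Those most like Mt2 were Igfbp3 (r = 0.96), Ldb1 (0.96), Rpl13 (0.94), Rps21 (0.93) and Rpl11 (0.93). Those most like Mt1 were Maf (r = 0.95), Atrnl1 (0.94), Atp6v1f (0.93), Igfbp3 (0.92) and Prss23 (0.91). Mt1 and Mt2 followed each other at r = 0.91, and Mt4 followed them at 0.42 and 0.49. Mt4 was chosen for marking Krt10-rich wells of these plates, so its likeness to Krt10 and Krt1 restates that choice. The sums share plates and depth, and no test was made.

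The shares on either side of the minimum of 1000 transcripts rest on few wells. Of 39 wells with 1000 to 1100 transcripts, 53.8% held Mt1, 10.3% Mt2 and 5.13% Mt4. Of 45 wells with 900 to 1000 transcripts, 51.1%, 17.8% and 2.22% did.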

How the data were processed

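Sorted populations were sequenced by CEL-Seq2 and plates by SORT-seq, which tag the 3′ end of each transcript with a molecular barcode. Per the submitters' processing notes, the authors mapped reads with BWA 0.6.2-r126 to mm10. The bulk files hold raw counts per gene as deposited. The plates hold transcript numbers that the authors estimated from 4096 possible barcodes, and each value maps back to a whole number of barcodes at most 3.57e-09 of a barcode away. Intervals and floors cover counting error only.

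Bulk counts, spike-ins left out, were tested for each pair of populations with edgeR 4.0.16 (TMM, filterByExpr, quasi-likelihood fit of all 6 libraries, Benjamini-Hochberg at 0.05), after a check on simulated data. SE is the log2 fold change divided by the root of F. The 2 mice are separate animals, and replicate numbers pair libraries by animal (correlations of deviations 0.0521, 0.0859 and 0.09 over genes). Wells with at least 1000 transcripts (without spike-in and mitochondrial rows) were clustered with Seurat 5.3.0 (sctransform, 3000 variable genes without the Mt genes, 20 components, resolution 0.8, with total, detected genes and mouse regressed). A class needed 3 markers, each seen in at least 3 wells, and sums needed 10 wells per plate. On the traced plates, and in shallow clusters, a class also needed a marker among the 10 leading genes of its cluster. Other Troy-EGFP clusters were named without this. Every class named among the epidermal wells at the main setting had such a marker on both kinds of plate. The limit of 3 wells was set after the clusters had been seen. A plate holds the cells of 1 mouse, no well had the values of another, and no doublet caller was run, since cells were sorted into single wells.

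The members and gene lists were chosen with earlier results of these data known. From the lists, genes called in a bulk comparison were named, up to 4 for each list and comparison by smallest p, with Mtf1 and Slc30a1 in any case. Likeness used the 5 genes of highest Pearson correlation on log2(CPM + 20), among genes with a mean of at least 50 CPM. Wells were thinned to 1000 barcodes for shares. Alternatives were DESeq2, other scalings, filters, fits, clusterings and pseudocounts, and each replicate left out.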

Additional observations from a re-analysis of the deposited data

Results flagged for a closer look

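Among 18 sets of 4 Troy-EGFP plates, 1 had a plate far from the others, about what chance gives at 1 in 20 sets. It was Mt4 in wells under 0.1% Krt10, where TroyM02 was at 7.09 CPM, from 2 transcripts in 94 wells, and TroyM01, TroyF01 and TroyF02 were at 0. Among 18 contrasts of classes, 1 had every traced plate on 1 side of 0 and every Troy-EGFP plate on the other: Mt1 was higher in IFE II-like than in lower HF-like wells on both traced plates, by 0.56 on the log2(CPM + 20) scale, and lower on all 3 Troy-EGFP plates, with a mean of -0.2. On TroyF01 the levels of Mt1 in these classes were close to equal. The difference between the experiments was not tested.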

How the results depend on the processing

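The direction of the called Mt4 difference between EGFP+ and EGFP- cells held in every fit run, with a log2 fold change of 2.56 to 3.05 when 1 library was left out, but DESeq2 did not call it (2.98). With edgeR it could not be tested when only those populations were fitted, since it failed the count filter. Over the bulk fits of the members, 91 alternatives kept direction and call, 7 turned the direction, 4 gained and 4 lost a call. Mt4 between EGFP- and viable cells was -3.05 without the filter and -2.89 with the mouse as replicate block, both past the threshold, and -3.12 to -2.74 with 1 library left out. Mt1 between EGFP- and viable cells turned to -0.057 without the filter. With 1 library left out Mt1 ran from -0.17 to 0.34 (EGFP+ against EGFP-), 0.00 to 0.29 (EGFP+ against viable) and -0.20 to 0.33 (EGFP- against viable). Mt2 ran from -1.14 to -0.12, -0.78 to -0.33 and -0.45 to 0.59, and Mt4 in EGFP+ against viable cells from -0.34 to 0.12. Genes called numbered 328 (EGFP+ against EGFP-), 22 (EGFP+ against viable) and 83 (EGFP- against viable). In that order they were 151, 66 and 38 with only the populations compared, 141, 10 and 33 with DESeq2, and 131 to 751, 7 to 124 and 27 to 464 with 1 library left out. Without the filter the last 2 were 43 and 133, and with the replicate block 49 and 163. The block changed no other call of a member. Where a library is left out, the lone library of its population is assumed to vary like the other groups. Between classes, 164 alternatives moved a difference by less than its SD and 18 by more, and the causes were not tested. On the traced plates Mt1 in IFE I-like minus upper HF-like wells was 5.06 (500 transcripts), 1.79 (resolution 0.5), 4.75 (observed barcodes), 4.61 (pseudocount 5), 3.50 (pseudocount 100) and 4.54 (TMM). Mt1 in IFE I-like minus lower HF-like wells was 0.55 (500 transcripts), 0.51 (2000 transcripts), 0.57 (pseudocount 100) and 0.73 (TMM). Mt2 in IFE I-like minus upper HF-like wells was 2.58 (resolution 0.5), 6.36 (pseudocount 5) and 3.62 (pseudocount 100), Mt2 in IFE I-like minus lower HF-like wells 1.79 (pseudocount 100), and Mt4 in IFE II-like minus IFE I-like wells 3.20 (pseudocount 100). On the Troy-EGFP plates, sums of under 10 wells gave 0.92 for Mt1 and 1.67 for Mt2 in IFE I-like minus upper HF-like wells, a pseudocount of 100 gave 1.56 for that of Mt2, and a minimum of 500 transcripts gave 3.76 for Mt4 between Krt10 bins. Without 1 plate Mt4 in IFE II-like minus IFE I-like wells was 1.92 to 3.75 (Troy-EGFP) and 3.88 to 5.10 (traced). Thinning to 1000 barcodes took the mean share of kept wells with Mt4 from 6.39% to 2.82% on the Troy-EGFP and from 10.2% to 6.68% on the traced plates, and with Mt2 from 31.7% to 18.8% and from 52.7% to 32.7%.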

Other observations

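Genes around the metallothioneins had their own order over the classes, given here without a test. Fth1, for ferritin heavy chain, was at 2650 CPM in IFE I-like wells of the Troy-EGFP plates, 1460 CPM in lower HF-like, 942 CPM in IFE II-like and 484 CPM in upper HF-like wells. On the traced plates the IFE I-like wells were again highest in Fth1, at 3320 CPM, and the upper HF-like wells lowest, at 103 CPM. The zinc exporter gene Slc30a1 had its highest epidermal mean in the upper HF-like wells. Its means in IFE II-like wells were 12.1 and 10.8 CPM on the Troy-EGFP and traced plates. They rest on 6 transcripts and on 2 in 1 well, too few to name a lowest class. Slc30a1 levels by class follow. It was at 78.6 ± 36.4 CPM (SD, n = 3 plates) in upper HF-like against 20.2 ± 20.4 CPM (n = 4) in IFE I-like wells of the Troy-EGFP plates, and at 41.0 ± 19.0 against 13.2 ± 2.62 CPM (n = 2 each) on the traced plates. These levels rest on 17, 9, 8 and 6 transcripts, and T cell-like wells of the Troy-EGFP plates were at 104 ± 61.4 CPM (n = 2). Mtf1 was at 48.0 ± 26.1 CPM in upper HF-like against 12.9 ± 11.2 CPM in IFE I-like wells of the Troy-EGFP plates, from 13 and 11 transcripts. Traced plates had 33.1 ± 31.3 CPM of it in upper HF-like and 38.2 ± 9.26 CPM in lower HF-like wells, so the upper HF-like wells were not the highest there. Gclm was at 128 ± 35.4 CPM in upper HF-like against 17.6 ± 21.1 CPM in IFE I-like wells of the Troy-EGFP plates, and at 40.2 ± 4.80 CPM in upper HF-like, 42.7 ± 11.2 CPM in lower HF-like and 6.25 ± 1.78 CPM in IFE I-like wells of the traced plates. Gpx4 was at 356 ± 316 CPM in upper HF-like wells of the Troy-EGFP plates, with 0 on 1 of 3 plates, against 167 ± 48.5 CPM in IFE I-like wells. The traced values were 223 ± 22.7 against 132 ± 31.3 CPM (n = 2 each).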
